A study of Mus musculus with 23 samples.

Results

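The genes described here are 9 genes of odontoblasts, osteoblasts and mineralized matrix: Runx2, Sp7, Alpl, Phex, Dspp, Dmp1, Ibsp, Spp1 and Bglap. They were chosen by name, and each was found by its symbol among the 54347 genes of the deposited count table. Their levels are described over 4 groups of RNA sequencing libraries, 23 in all. The cells came from lower incisors of mice at postnatal day 2, from the labial cervical loop, where stem cells of the enamel epithelium sit at the base of a tooth that grows throughout life. All mice carried a green fluorescent protein driven by Sox2's own promoter, and no drug or other allele is named. Cells were sorted by this fluorescence into a Sox2-positive population, labelled as dental epithelial stem cells, and a Sox2-negative population holding every other cell of the dissected piece. Batch A gave 6 Sox2-negative and 6 Sox2-positive libraries, and batch B gave 4 Sox2-negative and 7 Sox2-positive libraries. The batches were separate days with different mice, so day and mouse cannot be told apart. Whether libraries of 1 batch came from different mice is not given in the sources used here, and p-values then measure the spread between libraries, which may be technical.

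Mineralized tissue forms when odontoblasts, which line the dental pulp and lay down dentin, or osteoblasts, which lay down bone, secrete a collagen matrix and load it with phosphoproteins that bind calcium. RUNX2 and, downstream of it, osterix (Sp7) are the transcription factors required for osteoblast formation. Alkaline phosphatase (Alpl) removes pyrophosphate, an inhibitor of mineral growth, and PHEX is a membrane endopeptidase whose loss causes X-linked hypophosphatemia. Dentin sialophosphoprotein (Dspp), dentin matrix protein 1 (Dmp1), bone sialoprotein (Ibsp) and osteopontin (Spp1) are secreted acidic phosphoproteins encoded next to each other, and osteocalcin (Bglap) is a small calcium-binding protein of mature osteoblasts. Dspp is the main odontoblast gene, but presecretory ameloblasts of the dental epithelium are known to express it for a short time.

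The promoters of members that hold the core RUNX motif are shown because Runx2 itself is a member. RefSeq entries (GRCm38.p6) matched 7 of the 9 members, with 10 start sites, and none was printed for Dspp and Sp7. TGTGGT, or ACCACA on the other strand, was found in 300 bases around the start (250 before, 50 after) at 4 of these 10 starts, in 4 genes. Of all 32851 promoters of the same length, 16.8% held it. The 250 bases before each of these starts are given 5′ to 3′ on the gene's own strand, with the RUNX core and, on this strand alone, TATAAA in capitals. They are Runx2 at chr17:44814628-44814877 (minus strand), Dmp1 at chr5:104202367-104202616 (plus), Spp1 at chr5:104434861-104435110 (plus) and Bglap at chr3:88384467-88384716 (minus).
Runx2: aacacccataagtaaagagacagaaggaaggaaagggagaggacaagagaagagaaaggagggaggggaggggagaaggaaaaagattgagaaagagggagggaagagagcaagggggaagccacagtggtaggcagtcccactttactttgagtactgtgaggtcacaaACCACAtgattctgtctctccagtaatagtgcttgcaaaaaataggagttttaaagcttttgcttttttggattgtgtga
Dmp1: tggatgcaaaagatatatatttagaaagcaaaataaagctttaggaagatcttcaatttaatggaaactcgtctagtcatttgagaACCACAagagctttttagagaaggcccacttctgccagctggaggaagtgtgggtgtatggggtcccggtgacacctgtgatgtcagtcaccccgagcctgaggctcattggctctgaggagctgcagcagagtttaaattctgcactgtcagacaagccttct
Spp1: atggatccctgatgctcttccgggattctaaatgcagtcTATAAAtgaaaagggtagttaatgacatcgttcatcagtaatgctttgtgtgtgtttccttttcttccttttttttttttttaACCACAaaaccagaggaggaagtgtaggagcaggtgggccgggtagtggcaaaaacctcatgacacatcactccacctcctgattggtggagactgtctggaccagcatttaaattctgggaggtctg
Bglap: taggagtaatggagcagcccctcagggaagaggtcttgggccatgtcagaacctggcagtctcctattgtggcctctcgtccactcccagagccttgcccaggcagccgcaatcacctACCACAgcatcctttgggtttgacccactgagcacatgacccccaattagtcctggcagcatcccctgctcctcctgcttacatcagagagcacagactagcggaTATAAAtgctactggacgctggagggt
The RUNX core began 80 bases before the start in Runx2, 164 in Dmp1, 128 in Spp1 and 132 in Bglap. Runx2 held it again at bases 24 and 32 after the start. TATAAA, which 8.32% of all promoters held on this strand, lay 27 bases before the start of Bglap and 211 before that of Spp1. A match of letters is a description and shows no binding. The TAATTA motif of homeodomain proteins, held by 5.29% of promoters on either strand, was found at 1 of the 10 starts, another start of Spp1.

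Library totals ranged from 2305778 to 9541443 estimated counts. Levels are given as CPM, estimated counts scaled to a common library total, and 3 counts, taken as the smallest level that can be shown, correspond to 0.357 to 1.30 CPM. Such floors cover counting error only. Sox2 itself averaged 7.25 ± 4.41 CPM (SD, n = 6) in batch A and 16.4 ± 2.89 (n = 7) in batch B Sox2-positive libraries, against 0.0417 ± 0.102 (n = 6) and 0.286 ± 0.571 (n = 4) in Sox2-negative libraries. A list of 6 epithelial genes summed to 3565 to 5705 CPM in Sox2-positive and 144 to 390 CPM in Sox2-negative libraries. Sox2 and the epithelial genes were thus at a higher level in the Sox2-positive population. So were the 5 glial and neural crest genes listed, all called higher in Sox2-positive cells over both batches. They summed to 755 to 966 CPM in batch A and 36.4 to 71.5 CPM in batch B Sox2-positive libraries. Sox2-negative libraries had 1.64 to 13.8 CPM in batch A and 6.39 to 13.8 CPM in batch B. A list of 8 dental mesenchyme genes summed to at most 16.9 CPM in Sox2-positive and 553 to 965 CPM in Sox2-negative libraries. Over both batches 7 of these 8 genes were called lower and 1 was called higher in Sox2-positive cells. Of all genes tested, 32.5% were called lower and 24.9% higher. The libraries numbered 1 and 2 of batch B stood apart: they detected 22831 to 23720 genes in Sox2-negative cells against 20312 to 20520 in the others, and 20809 to 21110 against 17765 to 19859 in Sox2-positive cells. Calls of the 9 genes that are lost without them, and printed differences of these genes that move by over 1.5 times, are given beside the result. The plot of all members by library shows the 9 genes at once.

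**Figure D1:**
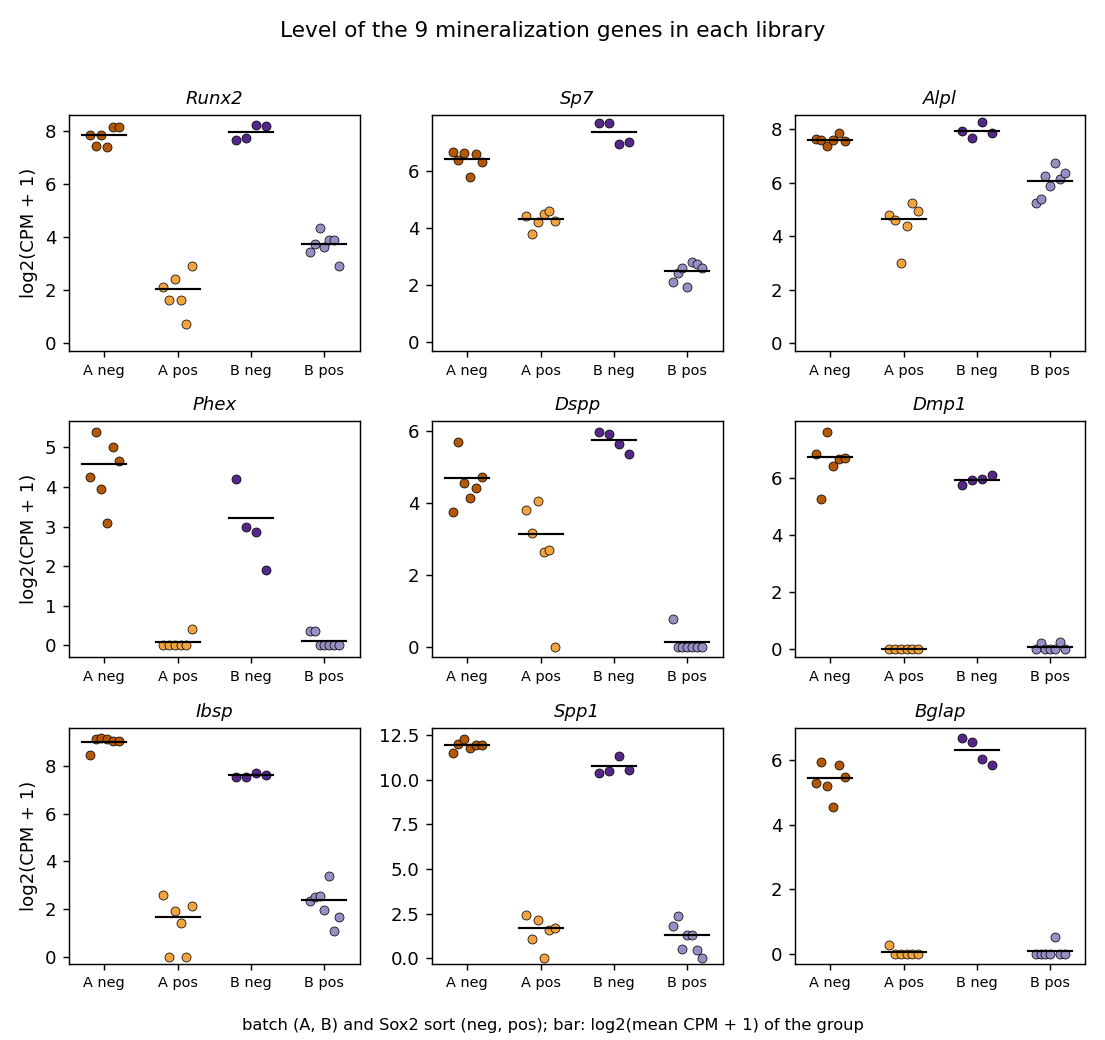
Level of each of the 9 genes, as log2(CPM + 1), in each of the 23 libraries (points, in order of library number), with a bar at the log2(mean CPM + 1) of each batch (A, B) and sort (neg, Sox2-negative; pos, Sox2-positive). Sox2-positive libraries lie below Sox2-negative ones for every gene except Dspp in batch A, and each panel has its own scale.

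Setting Sox2-positive against Sox2-negative cells asks which genes separate the labelled stem cells from the rest of the region. All 9 members were lower in Sox2-positive cells in the edgeR fit of both batches, where 32.5% of the 17190 genes tested were called lower and 57.5% were called in either direction. Their median log2 fold change was -6.77, with a range from -10.51 to -2.52, against -0.12 over all genes tested. In batch A alone, 8 of 9 were called lower, where 24.2% of the 14296 genes tested were called lower and 43.4% in either direction. In batch B alone 9 of 9 were called lower, where 27.6% of 15765 genes were called lower and 54.7% in either direction. In bulk libraries, fewer cells of a type and less RNA per cell cannot be told apart. Every Sox2-positive library lay below every Sox2-negative library for 8 of 9 members in batch A, where 15.7% of tested genes did so, and for 9 of 9 in batch B, where 20.7% did. The exception was Dspp in batch A. With the 2 apart-standing libraries of each batch B group left out, 9 of 9 members were still called in both batches together and in batch B. Over all genes, 9431 and 6919 were then called.

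Runx2, the master regulator of osteoblast formation, lies on chromosome 17 (44495987 to 44814797, minus strand, mm10). In batch A it lay between 165 and 282 CPM (median 229) in Sox2-negative libraries and between 0.655 and 6.39 (median 2.72) in Sox2-positive ones. In batch B the 4 Sox2-negative libraries had 199, 208, 298 and 285 CPM, and the 7 Sox2-positive libraries ranged from 6.37 to 19.3 (median 12.2). The Sox2-negative groups overlapped, while the Sox2-positive groups met only at their edges, the lowest of batch B standing just under the highest of batch A. Sox2-positive cells differed by -6.11 ± 0.37 on the log2 scale (SE; edgeR adjusted p 2.207e-09) in batch A and by -4.23 ± 0.22 (1.357e-10) in batch B. The difference between batches was larger than the spread between libraries (interaction 1.81 ± 0.42 on the log2 scale, edgeR adjusted p 0.006401), but it was no longer called without libraries 1 and 2 of batch B (1.65 ± 0.52, adjusted p 0.1034). Within Sox2-positive cells, Runx2 was higher in batch B by 1.95 ± 0.30 (log2, edgeR adjusted p 5.495e-05), and within Sox2-negative cells it differed by 0.13 ± 0.28 (adjusted p 0.8218).

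Sp7, which encodes osterix and lies on chromosome 15 (102356606 to 102367182, minus strand), moved the other way between batches. Its batch A levels ranged from 54.3 to 100.1 CPM (median 89.9) in Sox2-negative libraries and from 13.1 to 23.4 (median 19.5) in Sox2-positive ones. In batch B the Sox2-negative libraries had 206, 205, 122.5 and 129.5 CPM, the higher pair being libraries 1 and 2, and Sox2-positive libraries had 2.84 to 6.04 (median 5.05). None of the 4 groups overlapped another. Its population difference was -2.15 ± 0.22 on the log2 scale in batch A (edgeR adjusted p 1.244e-06) but -5.09 ± 0.22 in batch B (1.627e-11). The interaction of -3.00 ± 0.30 (edgeR adjusted p 2.089e-07) was kept without libraries 1 and 2 of batch B (-2.51 ± 0.36, adjusted p 0.0001692). From batch A to batch B, Sp7 fell by 2.04 on the log2 scale in Sox2-positive cells (SE 0.21, edgeR adjusted p 8.726e-08) and rose by 0.96 in Sox2-negative cells (SE 0.22, adjusted p 0.003793). The rise was not called without libraries 1 and 2 of batch B (0.57 ± 0.27, adjusted p 0.2909). The ratio of mean CPM of Sox2-negative over Sox2-positive cells was thus 4.46 in batch A and 35.9 in batch B for Sp7, and 71.9 and 20.1 for Runx2.

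Alpl, the tissue-nonspecific alkaline phosphatase on chromosome 4 (137741733 to 137796384, minus strand), had the highest level per kb of transcript among the members in Sox2-positive cells. It ranged from 164 to 231 CPM (median 193) in batch A Sox2-negative and from 7.06 to 37.0 (median 24.9) in batch A Sox2-positive libraries. In batch B the Sox2-negative libraries had 246, 205, 311 and 231.5 CPM, and the Sox2-positive libraries had 37.1 to 106 (median 69.8), the lowest 2 being libraries 1 and 2. The Sox2-positive groups of the batches did not overlap, while the Sox2-negative groups did. On the log2 scale the populations differed by -3.03 ± 0.28 within batch A (SE; edgeR adjusted p 3.444e-07), and within batch B by -1.84 ± 0.23 (5.65e-06). Alpl was higher in batch B Sox2-positive cells by 1.48 ± 0.26 (log2, edgeR adjusted p 0.0002295). Alpl is known to mark the stratum intermedium, the epithelial layer next to ameloblasts. The 5 genes listed for this layer did not move together over both batches: Cldn10 was called higher and Thbd lower in Sox2-positive cells, Notch1 and Hes1 were not called, and Hes5 was not tested. Their sum of 483 to 614 CPM in Sox2-positive and 158.5 to 304 in Sox2-negative libraries rests on Cldn10, at 472 ± 21.9 (SD, n = 6) and 355 ± 31.2 CPM (n = 7) in Sox2-positive cells. Between batches, Notch1 alone of these genes was called higher in batch B Sox2-positive cells, at 53.1 ± 12.2 and 90.3 ± 17.5 CPM. The part of this layer in the Alpl level was not tested.

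Phex, on the X chromosome (157162075 to 157415312, minus strand), was the lowest member in Sox2-negative cells once length was taken into account. It ranged from 7.47 to 41.0 CPM (median 21.2) in batch A Sox2-negative libraries and reached 17.4, 7.00, 6.26 and 2.71 CPM in those of batch B. Sox2-positive libraries held 2 counts over all 6 of batch A and 4 counts over all 7 of batch B. These sums correspond to ratios of Sox2-negative over Sox2-positive cells of 365.1 (95% counting interval 100.6 to 3022) and 78.1 (30.1 to 289). The edgeR log2 fold changes of -7.99 ± 0.84 (adjusted p 1.356e-06) and -5.90 ± 0.81 (1.389e-05) depend on the prior count at such levels. They were -9.66 without batch A Sox2-positive library 6, which held both counts, and -7.40 ± 1.37 without libraries 1 and 2 of batch B (-5.26 without Sox2-negative library 1 alone). The batch difference in Sox2-negative cells was not called (edgeR adjusted p 0.1794), and the few counts of Sox2-positive cells allow no comparison between batches.

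The secreted phosphoproteins form a cluster on chromosome 5, where Dspp (104170712 to 104180127), Dmp1 (104202613 to 104214102), Ibsp (104299171 to 104311469), Mepe (104325329 to 104338611) and Spp1 (104435118 to 104441050) follow each other on the plus strand over 270.3 kb. Mepe encodes matrix extracellular phosphoglycoprotein, known from osteocytes and odontoblasts, and is not among the 9 genes. All 5 were called lower in Sox2-positive cells over both batches, as were 32.5% of all genes tested. Their median log2 fold change was -10.41. The protein-coding genes on either side are shown with them in the plot along the cluster. Sparcl1 averaged 439 ± 25.9 CPM (SD, n = 6) in Sox2-positive against 255.5 ± 29.4 (n = 6) in Sox2-negative libraries of batch A, and 1126 ± 54.3 (n = 7) against 65.9 ± 16.7 (n = 4) in batch B. Sparcl1, whose protein resembles osteonectin, was thus at a higher level in Sox2-positive cells of both batches. Pkd2, encoding the channel polycystin-2, averaged 35.6 ± 6.14 against 95.8 ± 24.5 CPM in batch A and 51.3 ± 9.74 against 80.5 ± 39.6 in batch B.

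**Figure D2:**
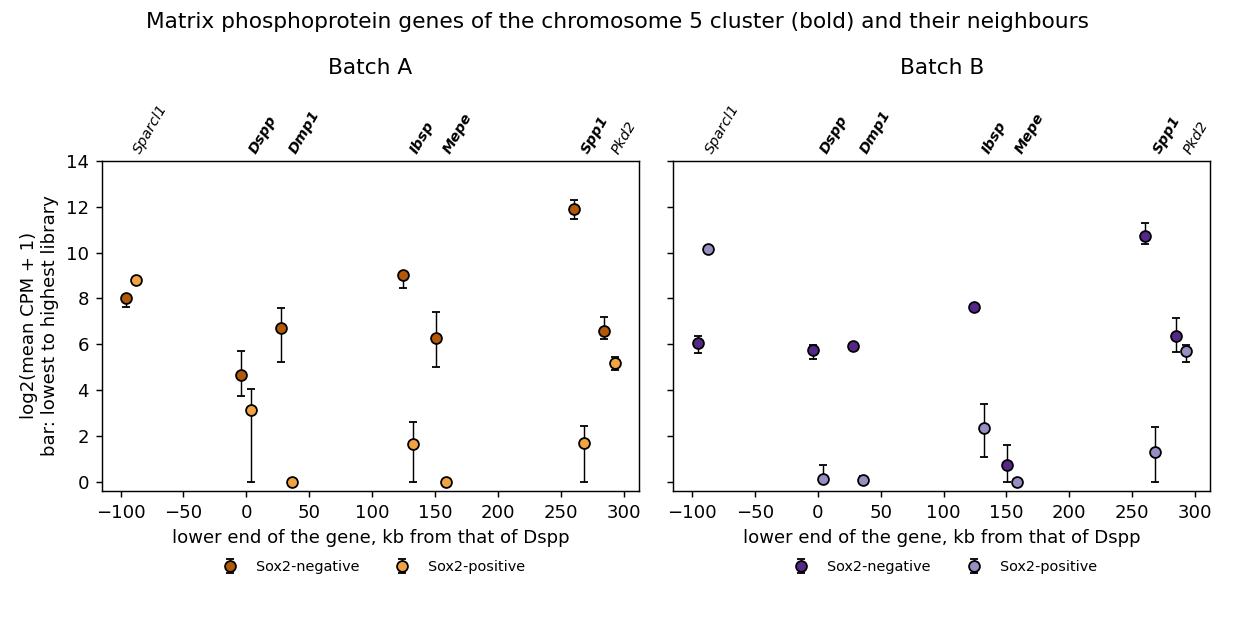
Level of the 5 phosphoprotein genes (bold) and the protein-coding gene on either side, as log2(mean CPM + 1), against the distance of the gene's lower end from that of Dspp in kb; bars run from the lowest to the highest library, and the populations are drawn slightly apart. Within the cluster the means of Sox2-negative cells (dark) lie above those of Sox2-positive cells (light), while Sparcl1 is higher in Sox2-positive cells. In batch A they run from 24.6 CPM against 7.82 for Dspp to 3869 against 2.19 CPM for Spp1. The ranges overlap for Dspp in batch A and for Mepe in batch B.

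Spp1, encoding osteopontin, had the highest level per kb of transcript in Sox2-negative cells of both batches. Batch A Sox2-negative libraries ranged from 2816 to 5009 CPM (median 3941), and batch B ones had 1330, 1445, 2523 and 1487 CPM. Sox2-positive libraries ranged from 0 to 4.46 CPM (median 2.12) in batch A and from 0 to 4.22 (median 1.44) in batch B. The populations were separated by a wide gap in both batches, and the Sox2-negative groups did not overlap each other. Log2 fold changes were -10.76 ± 0.36 (edgeR adjusted p 1.874e-12) and -9.88 ± 0.39 (5.833e-12), the second being -11.38 ± 0.30 without libraries 1 and 2 of batch B and -10.52 without Sox2-positive library 2 alone. Within Sox2-negative cells Spp1 was lower in batch B by a log2 difference of -1.19 ± 0.31 (edgeR adjusted p 0.01292), a call lost without libraries 1 and 2 of batch B (-0.94 ± 0.33, adjusted p 0.1281) and without either alone (0.0588 and 0.05441).

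Ibsp, encoding bone sialoprotein, came next per kb in batch A, but not in batch B. In batch A Sox2-negative libraries it ranged from 349.5 to 571 CPM (median 545), the lowest being library 1, and in batch B it was nearly level at 187, 185, 207 and 197 CPM. Sox2-positive libraries ranged from 0 to 5.07 CPM in batch A, where 2 of 6 held no count, and from 1.10 to 9.40 CPM (median 4.07) in batch B. Again the Sox2-negative groups did not overlap. The population difference was -7.89 ± 0.49 (log2, edgeR adjusted p 3.043e-09) in batch A but -5.51 ± 0.30 (3.212e-10) in batch B. The interaction was 2.32 ± 0.60 (edgeR adjusted p 0.01584) and was not called without libraries 1 and 2 of batch B (2.20 ± 0.77, adjusted p 0.1489). Within Sox2-negative cells Ibsp was lower in batch B by -1.41 ± 0.38 (log2, edgeR adjusted p 0.01442), and this too was not called without those libraries (-1.35 ± 0.53, adjusted p 0.1788). Osteoclasts and macrophages are also known to express Spp1. A list of 8 osteoclast genes summed to 1047 to 1332 CPM in batch A and 715 to 899 in batch B Sox2-negative libraries, with Ctsk at 446.5 ± 66.5 (SD, n = 6) and 211 ± 24.0 CPM (n = 4). Macrophage genes (6 listed) summed to 801 to 959 and 156 to 210.5 CPM. Both sums were thus lower in batch B, as Spp1 and Ibsp were, but the genes were divided. Of 6 osteoclast genes tested, Acp5 and Ctsk were called lower in batch B and 4 were not called, among them Mmp9 at 476 ± 44.6 (n = 6) and 530 ± 93.9 CPM (n = 4). Of 6 macrophage genes 3 were called lower and 3 were not. Of all genes tested, 5.35% were called lower in batch B Sox2-negative cells. All 3 listed endothelial genes were also called lower in batch B, with sums of 380 to 560.5 CPM in batch A and 81.2 to 166 CPM in batch B Sox2-negative libraries. The part of these cells in the levels of Spp1 and Ibsp was not tested.

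Dmp1, which odontoblasts and osteocytes secrete, was not counted once in the 6 batch A Sox2-positive libraries. Batch A Sox2-negative libraries ranged from 36.5 to 192 CPM (median 99.8), and their mean was at least 175.6-fold above the Sox2-positive floor of 3 counts per library. In batch B the Sox2-negative libraries had 52.9, 58.8, 60.7 and 66.2 CPM, and the 7 Sox2-positive libraries held 2 counts in all, a ratio of 1011 (95% counting interval 279.5 to 8357). The log2 fold changes fitted by edgeR were -11.91 ± 0.72 (adjusted p 1.831e-07) and -9.48 ± 0.41 (1.86e-11), and these depend on the prior count. Its spread in Sox2-negative cells differed, with a coefficient of variation (SD over mean) of 48.6% for batch A against 9.19% for batch B. The means of 104 ± 50.7 CPM (SD, n = 6) and 59.7 ± 5.48 (n = 4) did not differ beyond it (log2 difference -0.80 ± 0.33, edgeR adjusted p 0.1284).

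Dspp, the odontoblast gene, had the largest interaction of the members. In batch A, Sox2-negative libraries ranged from 12.5 to 50.9 CPM (median 21.4) and Sox2-positive libraries from 0 to 15.4 (median 6.67), with 59, 44, 82, 22, 27 and 0 counts. These groups overlapped, and the log2 fold change of -1.64 ± 0.70 was not called (edgeR adjusted p 0.06768). It was called at 0.02968 by DESeq2, at 0.02515 by limma-voom and at 0.03135 by edgeR without the Sox2-positive library that held 0 counts. In batch B, Sox2-negative libraries had 61.7, 59.4, 48.9 and 40.3 CPM, while 6 of 7 Sox2-positive libraries held no count and library 1 held 4 counts (0.685 CPM). The batch B log2 fold change was -8.51 ± 0.55 (edgeR adjusted p 2.332e-09), and the interaction was -6.90 ± 1.07 (adjusted p 0.0001023). Within Sox2-positive cells Dspp was lower in batch B by -5.81 ± 0.84 (log2, edgeR adjusted p 2.05e-05). All 3 values rest on the 4 counts of library 1, without which they were -11.15, -9.43 and -8.33. Without libraries 1 and 2 of batch B they were -10.71 ± 0.71, -9.08 ± 1.59 and -8.22 ± 1.32 (edgeR adjusted p 1.961e-05, 0.002831 and 0.0004671). In Sox2-negative cells the batch difference of 1.09 ± 0.63 was not called (adjusted p 0.2904).

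Some other genes were also lower in Sox2-positive cells of batch B, as Dspp and Sp7 were. The 7 listed ameloblast genes summed to 293 to 349.5 CPM in batch A and to 9.72 to 17.5 CPM in batch B Sox2-positive libraries, and to 596 to 940 CPM in Sox2-negative libraries. Of the 5 tested, 4 were called lower in batch B Sox2-positive cells, where 5.54% of all genes tested were called lower. Amelx, the main enamel matrix gene, averaged 270 ± 20.6 (SD, n = 6) and 6.75 ± 1.63 CPM (n = 7) in Sox2-positive cells, and Enam averaged 21.4 ± 4.48 and 0. Klk4 and Amtn, genes of the late ameloblast, stayed at or near 0 in all groups. The 5 glial and neural crest genes, all called lower in batch B, summed to 755 to 966 and 36.4 to 71.5 CPM. The 6 fibroblast and mesenchymal genes summed to 385.5 to 567 CPM in batch A and 58.7 to 123.5 CPM in batch B, a difference carried by the collagen gene Col3a1, at 387 ± 73.4 (n = 6) and 7.01 ± 5.57 CPM (n = 7). Of these 6 genes 2 were called lower and 4 were not called, with Pdgfra at 29.3 and 42.4 CPM and Dcn at 4.58 and 7.41 CPM. The 8 dental mesenchyme genes summed to 5.13 to 13.0 CPM in batch A and 5.36 to 16.9 CPM in batch B. Within that sum Msx1 and Prrx1 were called lower in batch B, from 1.89 to 0.590 and from 2.12 to 0.391 CPM, while Lhx6, not called, averaged 3.31 and 8.79 CPM. Runx2 and Alpl, in contrast, were higher in batch B. The part of these lists in the levels of Dspp and Sp7 was not tested.

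**Figure D3:**
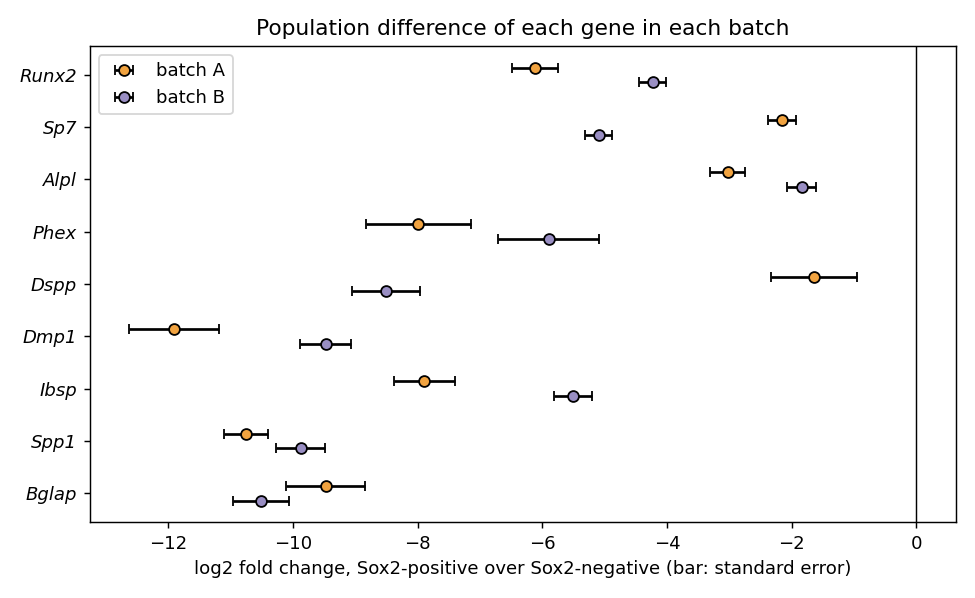
Log2 fold change of Sox2-positive over Sox2-negative cells, with its standard error from edgeR, for each member in batch A (orange) and batch B (purple). Every point lies below 0, Dspp and Sp7 are nearer to 0 in batch A (-1.64 and -2.15), and Runx2 and Ibsp are nearer to 0 in batch B (-4.23 and -5.51). Bglap is also nearer to 0 in batch A, and Alpl, Phex, Dmp1 and Spp1 in batch B, but their interactions were not called.

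Over the 9 members, the population by batch interaction was called for 4 (Runx2 and Ibsp above 0, Dspp and Sp7 below 0), where 7.04% of tested genes were called (2.82% above and 4.22% below 0). Within Sox2-positive cells 4 members differed between batches (Runx2 and Alpl higher, Dspp and Sp7 lower in batch B) against 10.4% of tested genes (4.85% higher, 5.54% lower), and within Sox2-negative cells 3 (Sp7 higher, Ibsp and Spp1 lower) against 11.2% (5.85% higher, 5.35% lower). Without libraries 1 and 2 of batch B these counts were 2, 4 and 0. The calls over all genes fell as well, from 1210 to 481, from 1785 to 1159 and from 1924 to 754. The groups of the batches did not overlap for 2 members in Sox2-positive cells (Sp7 and Alpl), where 8.55% of genes did not, and for 3 in Sox2-negative cells (Sp7, Ibsp and Spp1), where 8.91% did not.

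Mepe, between Ibsp and Spp1, showed the widest batch difference of its genes in Sox2-negative cells. It ranged from 30.9 to 167 CPM (median 51.3) in batch A and had 0.453, 0.143, 2.07 and 0 CPM in batch B, with no count in any of the 13 Sox2-positive libraries. The groups did not overlap, and the log2 difference was -6.75 ± 0.93 (edgeR adjusted p 0.0001764). Its mean in batch A Sox2-negative libraries, 75.4 ± 56.2 CPM (SD, n = 6), was at least 127.1-fold above the Sox2-positive floor of 3 counts per library. In batch B it did not pass the filter on low counts and was not tested there. Of the other osteocyte genes listed, Sost, the Wnt inhibitor sclerostin, and Fgf23, the phosphate-regulating hormone, were at or under the floor in all groups.

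Bglap, or osteocalcin, has close copies beside it on chromosome 3: Bglap (88383501 to 88384464), Bglap2 (88377736 to 88378699) and Bglap3 (88368616 to 88372743), all on the minus strand. Reads can be split between them, since 62.9% of the 31-base words of Bglap transcripts, 95.2% of those of Bglap2 and 10.7% of those of Bglap3 occur in another copy. Bglap ranged from 22.4 to 60.4 CPM (median 40.7) in batch A Sox2-negative libraries and had 101, 93.5, 64.8 and 57.2 CPM in batch B. A single count was assigned to it over the 6 batch A Sox2-positive libraries, and another over the 7 of batch B. The resulting ratios of 1355 (95% counting interval 243 to 53580) and 2795 (501 to 110500) have wide intervals. Bglap2 averaged 26.5 and 33.2 CPM in Sox2-negative cells and was also near 0 in Sox2-positive ones.

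Bglap3 differed from its copies. It held 10 to 17 counts in every batch A and 7 to 18 in every batch B Sox2-positive library, or 2.62 ± 0.88 (SD, n = 6) and 2.34 ± 0.62 CPM (n = 7), against 9.26 ± 5.95 (n = 6) and 10.9 ± 4.14 CPM (n = 4) in Sox2-negative ones. Its log2 fold changes were -1.81 ± 0.57 (edgeR adjusted p 0.01762) and -2.13 ± 0.40 (0.0003262). It made up 93.2% and 98.4% of the counts of the 3 copies in Sox2-positive cells, and 11.7% and 8.61% in Sox2-negative cells. With the 3 copies summed into 1 gene, Sox2-negative cells averaged 78.5 ± 16.3 CPM (n = 6) and 123 ± 30.2 (n = 4), and Sox2-positive cells 2.79 ± 0.89 (n = 6) and 2.40 ± 0.66 (n = 7). The summed log2 fold change over both batches was -5.23 ± 0.20 (edgeR adjusted p 5.244e-18), against -10.09 ± 0.40 (9.602e-18) for Bglap alone. The value for Bglap alone rests on 1 count in each Sox2-positive group and depends on the prior count. The interaction was not called for the sum (-0.84 ± 0.35, adjusted p 0.1622).

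**Figure D4:**
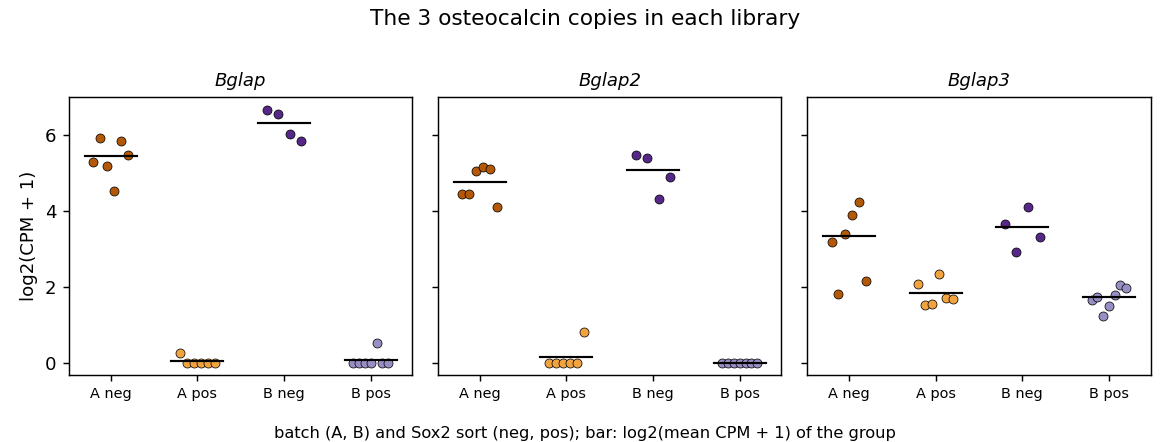
Level of Bglap, Bglap2 and Bglap3, as log2(CPM + 1), in each library (points) with a bar at the log2(mean CPM + 1) of each batch (A, B) and sort (neg, pos). Bglap and Bglap2 are at or near 0 in Sox2-positive libraries, while Bglap3 keeps a mean of 2.62 and 2.34 CPM there.

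The order of the members was compared per kb of the longest coding transcript. In batch A Sox2-negative cells the mean levels were 2567 CPM per kb for Spp1, 250 for Ibsp, 97.2 for Bglap, 77.5 for Alpl, 37.7 for Dmp1, 34.9 for Runx2, 27.5 for Sp7, 5.55 for Dspp and 3.63 for Phex. In batch B Sox2-negative cells Spp1 at 1126 was followed by Bglap (180), Alpl (98.5), Ibsp (93.9), Sp7 (53.5), Runx2 (38.3), Dmp1 (21.6), Dspp (11.9) and Phex (1.33). Spp1 led and Phex was last in both batches. Neighbours such as Dmp1 and Runx2 in batch A, or Alpl and Ibsp in batch B, lay closer to each other than their library spread. In Sox2-positive cells Alpl led with 9.46 and 26.5 CPM per kb, followed by Sp7 (6.17) in batch A and by Ibsp (2.02) and Runx2 (1.91) in batch B. The libraries of Alpl, with a coefficient of variation of 42.4% in batch A, spread more widely than its distance from Sp7 there, and Ibsp and Runx2 in batch B lay within their spread.

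The lists of the wider pathway were counted over the same fit of both batches, with the members included in them. The scale of these differences is log2, and 32.5% of all genes were called lower and 24.9% higher in Sox2-positive cells. Of 8 osteoblast transcription factors, 8 were called lower, with a median of -1.03. Runx2 and Sp7 differed by -5.22 ± 0.29 and -3.55 ± 0.35 in this fit (SE; edgeR adjusted p 3.046e-14 and 1.855e-09), and Sp7 by -2.96 ± 0.30 without libraries 1 and 2 of batch B. The homeobox factors Dlx3, Dlx5 and Msx2, which dental epithelium also expresses, had smaller changes than these, of -1.09 ± 0.14, -0.96 ± 0.16 and -0.41 ± 0.10 (edgeR adjusted p 1.278e-07, 7.727e-06 and 0.001029). Cbfb, the partner subunit of RUNX2, and Atf4 were lower by -0.58 ± 0.12 and -0.54 ± 0.10 (edgeR adjusted p 0.0001851 and 4.697e-05). Fitted alone, batch A had 6 of these 8 factors called lower (24.2% of all genes tested) and batch B had 8 (27.6%). The batch B call of Dlx5 was lost with total counts and without libraries 1 and 2. The interaction was called for 4 of the 8 (7.04% of all genes tested), but for Runx2, Dlx3 and Dlx5 not without those libraries.

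Of 7 bone and dentin matrix genes, 7 were called lower, with a median of -2.43. Col1a1, the main collagen of bone and dentin, averaged 6221 ± 434 CPM (SD, n = 6) and 5962 ± 666 (n = 4) in Sox2-negative cells, and 424 ± 98.5 (n = 6) and 36.1 ± 11.5 CPM (n = 7) in Sox2-positive cells of batches A and B. Its interaction of -3.51 ± 0.24 (edgeR adjusted p 1.076e-10) had the same sign as those of Sp7 and Dspp. Col1a2, the other chain of type I collagen, averaged 565 ± 66.8 (n = 6) and 546 ± 40.4 CPM (n = 7) in Sox2-positive cells, and its interaction was not called (-0.08 ± 0.11, edgeR adjusted p 0.7909). Ifitm5, a membrane protein known from osteoblasts, averaged 20.4 ± 14.6 (n = 6) and 40.0 ± 6.65 CPM (n = 4) in Sox2-negative cells and 0.636 ± 0.613 (n = 6) and 0.925 ± 1.05 (n = 7) in Sox2-positive cells. Omd, the keratan sulfate proteoglycan osteomodulin, was lower by -3.95 ± 0.30 (edgeR adjusted p 1.796e-11).

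Phosphate handling genes were divided. Of 9 listed, 8 were tested, 5 were called lower and 1 higher, with a median of -0.53. Smpd3, encoding a sphingomyelinase needed for bone and dentin mineralization, had the largest change of the list at -10.68 ± 0.31 (edgeR adjusted p 9.411e-21), with 308.5 ± 75.6 (SD, n = 6) and 640 ± 89.4 CPM (n = 4) in Sox2-negative cells against 0.0934 ± 0.103 (n = 6) and 0.418 ± 0.574 (n = 7) in Sox2-positive cells. The phosphate transporter Slc20a2 was higher in Sox2-positive cells by 0.48 ± 0.17 (edgeR adjusted p 0.01871), and Slc20a1 was lower by -0.61 ± 0.21 (0.01342). The pyrophosphate exporter gene Ank was lower by -0.44 ± 0.14 (0.008977), a call lost with total counts in place of the TMM scaling. Fam20c, the kinase that phosphorylates the secreted phosphoproteins, was not called (-0.05 ± 0.31, edgeR adjusted p 0.8933), with 18.9 ± 13.0 (n = 6) and 22.0 ± 9.72 CPM (n = 4) in Sox2-negative and 24.4 ± 7.40 (n = 6) and 15.2 ± 5.68 CPM (n = 7) in Sox2-positive cells. Enpp1, the enzyme that makes extracellular pyrophosphate, was higher in Sox2-positive cells of batch A by 0.92 ± 0.28 (edgeR adjusted p 0.0149) and lower in those of batch B by -0.79 ± 0.21 (0.004697). Its interaction of -1.77 ± 0.36 was called (edgeR adjusted p 0.002277), but not without libraries 1 and 2 of batch B, where its batch B difference was also not called. Phospho1, the matrix vesicle phosphatase, stayed at or under 4.98 CPM in all libraries and was not tested.

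Of the 4 osteocalcin and Gla protein genes, 4 were lower, and Mgp, the matrix Gla protein that inhibits calcification, fell by 5.35 on the log2 scale (SE 0.42, edgeR adjusted p 2.617e-11). Its mean of 210 ± 27.8 CPM (SD, n = 6) in batch A Sox2-negative libraries stood above the 66.1 ± 10.8 (n = 4) of batch B, a difference no longer called without libraries 1 and 2 of batch B, and Sox2-positive libraries held 2.06 ± 2.14 (n = 6) and 4.33 ± 1.13 CPM (n = 7). Over all these lists 30 genes were called in both batches together. All 30 kept their direction with median-ratio scaling, with total counts and without libraries 1 and 2 of batch B, and Ank was the only call lost. Chondrocyte genes (5 listed) summed to at most 32.7 CPM in any library.

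For each member, the 3 genes with the highest Pearson correlation of log2 CPM over the 23 libraries were named, among 11089 genes with a mean of at least 10 CPM. These correlations describe how the genes vary over libraries that share the sort and the batch, and carry no test. Sp7 was closest to Col1a1 (r = 0.968), Col16a1 (0.968) and Bmp4 (0.968). Runx2 was closest to Tpm2 (0.982), Piezo2 (0.967) and Wif1 (0.967), and Alpl to Nfatc4 (0.941), Igf2 (0.929) and Tpm2 (0.926). Bglap followed the mesenchymal factors Twist1 (0.994), Twist2 (0.993) and Foxf2 (0.991). Dspp was closest to Grb10 (0.941), Adamts20 (0.930) and Marcks (0.924).

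The genes nearest to the other members included genes of blood cells. Phex was closest to Ptprc, the pan-leukocyte gene (0.978), Tnfaip2 (0.978) and Ltf (0.977). Dmp1 was closest to Stfa2 (0.995), Alox5ap (0.992) and Sall3 (0.992), Ibsp to Srgn (0.964), Wif1 (0.964) and Alox5ap (0.964), and Spp1 to Hpgd (0.987), Stfa2 (0.985) and Vim (0.985). On deviations from the 4 group means, which take out the sort and the batch, the highest correlations were lower. They were 0.880 for Dmp1 with Tlx1, 0.843 for Ibsp with Runx3, 0.801 for Runx2 with Epha3 and 0.793 for Phex with Lgals3bp. Those of Dspp (Syk, 0.790), Bglap (Prkab1, 0.778), Alpl (Nr4a1, 0.753), Spp1 (Kdelr2, 0.752) and Sp7 (Msto1, 0.751) were lower still. Each is the highest value among 11089 genes, and none was tested. Dmp1, Phex and Bglap had sums of 0 to 4 counts in each Sox2-positive group, so their deviations come mostly from the Sox2-negative libraries.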

How the data were processed

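The values deposited by the authors are estimated counts (expected counts) per gene in 23 libraries, with no scaling by the authors stated per the labels. Sorting, the Smart-seq2 protocol and Tn5 tagmentation are given per the labels' protocols, and FastQC, Trimmomatic, Salmon and the mm10 build per the submitters' processing notes, without versions or roles. The annotation and any strand setting are not given in the sources used here. Estimated counts were rounded to whole numbers before every test. Ensembl identifiers were matched without their version to GENCODE M21 symbols (54094 of 54347), whose mm10 coordinates are given. Unused sample columns numbered 0.

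Tests used edgeR 4.0.16 in R 4.3.3: filterByExpr over the groups (minimum count 10), TMM scaling and the two-sided quasi-likelihood F test, with Benjamini-Hochberg adjustment over all genes tested and calls at an adjusted p under 0.05. Both batches together had batch as a covariate over 23 libraries, each batch was fitted alone, and a model of the 4 group means gave the interaction (batch B minus batch A) and the batch differences within each population. The standard error is the absolute log2 fold change over the square root of F. CPM used the TMM-scaled totals of the genes tested, and log2 CPM a prior count of 2. Ratios of small count sums have exact 95% intervals that cover counting error only.

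All members were named, and genes of the other lists could be named where called in both batches together. Enpp1, Fam20c, Notch1, Hes1, Hes5, Phospho1, Sost, Fgf23, Klk4, Amtn, Sparcl1 and Pkd2 fall outside that rule and were chosen after their values were seen. Members and lists were chosen with earlier results of these data known. The fits were tested on simulated data. Alternatives were DESeq2 1.42.0, limma-voom (limma 3.58.1), other scalings and filters, libraries left out and the replicate number as a block. ATAC-seq data of the study were not analysed here, and the values of 1 gene of the listed transcription factors are not reported here.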

Additional observations from a re-analysis of the deposited data

Results flagged for a closer look

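Among 35 sets of 1 gene in 1 group (4, 6 or 7 libraries), 7 had 1 library far from the others by Dixon's test. Chance gives this in about 1 group in 20 where values are normally distributed, which sets near 0 counts are not. In batch A Sox2-negative cells, Dspp reached 50.9 CPM in library 2 against 12.5 to 25.2 in the others, and Ibsp was 349.5 CPM in library 1 against 525 to 571. In batch B Sox2-negative cells, Spp1 was 2523 CPM in library 3 against 1330 to 1487. The other 4 were sets at 0 in all libraries but 1. The test always flags such a set, so the rate of 1 in 20 does not apply to them. They held 1 to 4 counts in that library: Dspp at 0.685 CPM in batch B library 1, Phex at 0.324 CPM in batch A library 6, and Bglap at 0.211 CPM in batch A library 1 and 0.4445 CPM in batch B library 5, all Sox2-positive.

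The population difference differed between the batches by the edgeR interaction term for 4 genes. Its log2 values were -6.90 for Dspp and -3.00 for Sp7, whose difference between the populations was larger in batch B. They were 1.81 for Runx2 and 2.32 for Ibsp, whose difference was smaller there. Without libraries 1 and 2 of batch B the calls of Dspp and Sp7 were kept. Those of Runx2 and Ibsp were lost (edgeR adjusted p 0.1034 and 0.1489).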

How the results depend on the processing

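Of 1503 member values under alternatives, 1470 kept their direction and their side of the threshold, 10 lost the call, 10 gained it and 13 changed sign. All 297 values for both batches together and all 180 for batch B alone were kept. Leaving out 1 library at a time gave 9621 to 10091 genes called for both batches together, with 9 members throughout, 5805 to 6300 genes and 8 to 9 members in batch A, and 8005 to 8794 genes and 9 members in batch B. It gave 938 to 1254 genes and 4 to 5 members for the interaction, 1331 to 1989 genes and 1 to 4 members for batch within Sox2-negative cells, and 1497 to 1892 genes and 4 members for batch within Sox2-positive cells. Without batch B libraries 1 and 2, the interaction was called for 481 genes (1210 with them) and 2 members, batch within Sox2-negative cells for 754 genes (1924) and 0 members, and batch within Sox2-positive cells for 1159 genes (1785). DESeq2 called 1 member between batches in Sox2-negative cells, losing Ibsp (adjusted p 0.06164) and Spp1 (0.1382), and limma-voom called 3313 genes between batches in Sox2-positive cells. The cause of these shifts was not tested. Signs changed where neither value was called: Runx2 between batches in Sox2-negative cells (-0.009 with total counts), Spp1 in the interaction (-0.65) and Phex between batches in Sox2-positive cells (-1.75) without batch B libraries 1 and 2, and Bglap in the interaction (-2.14 to 0.30 with 1 library left out). Bglap between batches in Sox2-positive cells, at 1 count a group, was 0.0869 with DESeq2, 0.302 with limma-voom, 0.346 without batch B libraries 1 and 2, and -1.25 to 1.17 with 1 library left out. Alpl gained the interaction call with DESeq2 (0.02934), limma-voom (0.03186) and no filter (0.0176), Bglap that between batches in Sox2-negative cells with limma-voom (0.006033), and Dmp1 the same without batch A Sox2-negative library 2 (0.02815). Total counts moved the median of all genes by 0.12 for both batches together and by -0.15 between batches in Sox2-negative cells (log2). With no filter beyond 1 count the genes tested differ, and their median moved by -0.41 for both batches together. It moved by -0.50 in batch A and by -0.30 in batch B. Libraries with the same number did not deviate together (correlations from -0.02 to 0.06, best with their own number in 1 of 10). With the replicate number as a block, 8795 genes were called for both batches together, 5829 in batch A and 6668 in batch B, and 9, 8 and 9 members. No call of a member changed with this block. Depth limits Dmp1, Phex and Bglap in Sox2-positive cells, where sums of 0 to 4 counts allow no comparison between batches.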
